A study of Mus musculus with 6 samples.

Results

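The complement genes examined here are C3, C4b, C2, C1ra, C1s1, Serping1, Cfb, Masp1 and Cd55, 9 of the 34745 genes in the count table. They were named in a list drawn up with the contrast between lone and cocultured fibroblasts of these libraries in view. Their values in that contrast are therefore given as a description without a test, and tests are given only for complement genes outside the list. RNA was sequenced from primary renal fibroblasts of wild-type mice, cultured alone (3 libraries) or beneath a 0.4 μm insert holding Th17 cells, helper T cells that make interleukin-17, for 24 h (3 libraries). The fibroblasts had been allowed 6 h to attach, and those in the lower chamber were collected. The Th17 cells had been induced from CD4+ T cells with antibodies to CD3 and CD28, interleukin-1β, interleukin-6, interleukin-23 and an antibody to interferon-γ. The study's methods name Balb/c mice. The sex and age of the donor mice, and whether replicate libraries derive from separate cultures or animals, were not stated, so SD and SE describe the spread between these libraries and may be technical. Whether lone cultures had an empty insert, the same medium or the same 24 h was not stated either. Differences in these cannot be told apart from the presence of Th17 cells.

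Complement is a cascade of plasma proteins that tags and lyses targets. It is made mostly by liver, but also by fibroblasts and other stromal cells. In the classical pathway the proteases C1r and C1s, bound to C1q, cleave C4 and C2. In the lectin pathway MASP proteases, bound to mannose-binding lectin, ficolins or collectins, do the same. Both routes, and the alternative pathway that runs on factor B, meet at the cleavage of C3. C1 inhibitor, the product of Serping1, shuts off C1r, C1s and the MASPs, and CD55 on the cell surface speeds the decay of the enzymes that cleave C3. In the kidney, complement deposition in glomeruli accompanies IgA nephropathy, the disease the study models.

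Libraries held 12050529 to 13209581 counts, so both groups were sequenced to a similar depth. A count of 3, taken as the floor, corresponded to between 0.223 and 0.254 CPM (counts relative to the TMM-scaled library size). No library was a copy of another, and cocultured replicate 3 stood furthest from the other cocultured libraries, with a chi-square per gene of 13.9 and 15.1 against 8.45 between the other two. Fibroblast markers were abundant, with a summed level of 46850 to 48946 CPM in lone and 23047 to 26277 CPM in cocultured fibroblasts. Markers of macrophages summed to 47.7 to 51.9 CPM in lone and 8.52 to 9.74 CPM in cocultured fibroblasts. Of the 14 macrophage markers, Cd163 was at 0 in all libraries, and Adgre1, Tyrobp, Fcer1g and Ms4a7 were at 0 in all cocultured libraries. Markers of T cells summed to 4.27 to 5.53 CPM in lone and 2.21 to 2.67 CPM in cocultured fibroblasts. Most of this was Lck (4.72 CPM alone, 2.29 CPM with Th17 cells). Cd3d, Cd2, Il17a, Il17f and Ccr6 were at 0 in all libraries. Cd3e had counts of 1, 1 and 0 alone and of 0, 0 and 6 with Th17 cells. Endothelial markers summed to 6.79 to 7.52 CPM in lone and 1.60 to 2.75 CPM in cocultured fibroblasts, and kidney epithelial markers to 2.71 to 4.42 and 0.393 to 0.989 CPM. These marker sums were thus lower with Th17 cells, as most complement transcripts were. A sum can rest on few genes. In lone fibroblasts the endothelial sum was mostly Kdr (5.55 CPM alone, 0.126 CPM with Th17 cells). Pecam1 differed little (edgeR adjusted p = 0.862), and Tek had counts of 2, 3 and 3 alone and of 8, 13 and 3 with Th17 cells. The lone kidney epithelial sum was mostly Lrp2. Of 10 fibroblast markers, 9 were lower and Dcn higher at an edgeR adjusted p below 0.05, beside 20.0% and 17.1% of all genes. The part of these sums in the complement values was not tested.

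As a set, the 9 transcripts took 0.116%, 0.122% and 0.121% of all counts in lone libraries and 0.0446%, 0.0452% and 0.0389% in cocultured libraries. In bulk RNA fewer cells of a type and less RNA per cell cannot be told apart. For 8 of the 9 genes no cocultured library fell within the range of lone libraries in CPM, with 7 lower and 1 higher. The same separation was present in 50.4% of the 13088 genes tested, 26.1% lower and 24.3% higher. The fit placed 6 members lower and 1 higher past the threshold (adjusted p under 0.05 with more than a 2-fold difference), beside 7.78% and 3.87% of all genes, and nothing is read from these counts because the members were chosen on this contrast. The median log2 fold change was −1.63 over the 9 members and 0.00 over all genes tested, and the members ranged from −6.33 for C4b to 5.51 for Masp1. All 9 passed the filter on low counts, but C4b passed it only through the lone libraries and Masp1 only through the cocultured ones, so these 2 had to differ.

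**Figure D1:**
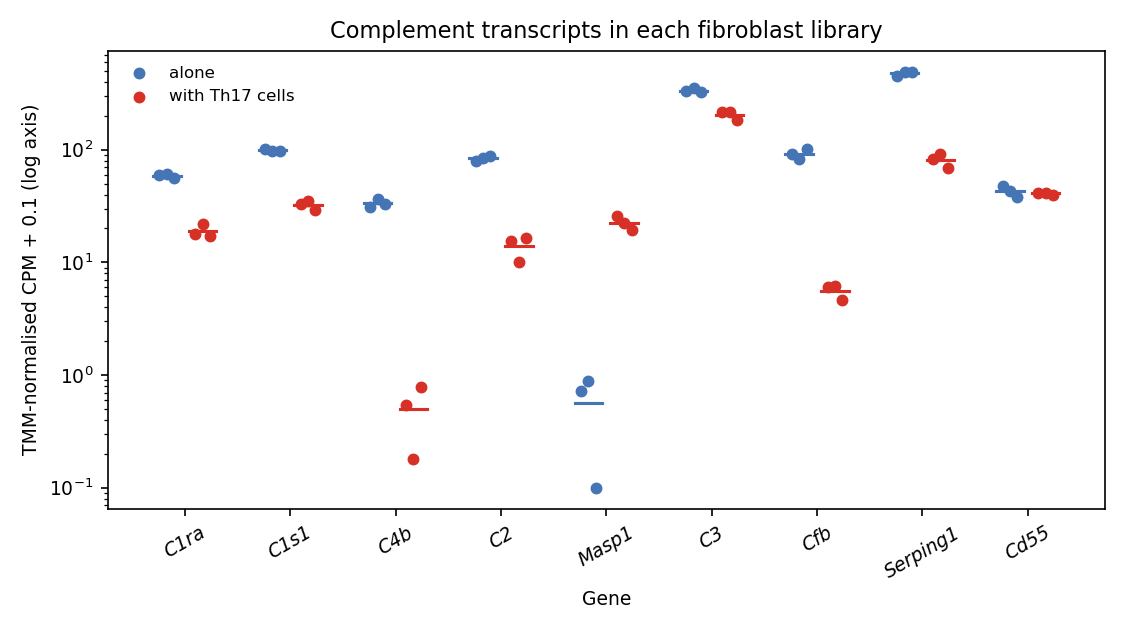
TMM-normalised CPM plus 0.1 on a log axis for each of the 9 complement genes, with a point for each library and a line at the mean of 3 libraries. Cocultured points lie below the lone points for 7 genes, above them for Masp1, and among them for Cd55.

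C1ra and C1s1 encode C1r and C1s, the proteases of the first complement component. C1ra (ENSMUSG00000055172, chromosome 6, 124512405 to 124523443 on GRCm38, the build of all gene positions given) had counts of 765, 766 and 666 alone and of 239, 280 and 224 with Th17 cells. C1s1 (ENSMUSG00000038521, chromosome 6, 124530345 to 124542359) had counts of 1297, 1232 and 1163 alone and of 439, 447 and 384 with Th17 cells. Every cocultured library was lower than every lone library for both genes. C1ra averaged 58.7 ± 2.17 CPM alone and 18.9 ± 2.67 CPM with Th17 cells (SD, n = 3 each), a log2 fold change of −1.63 (SE 0.11). C1s1 averaged 98.8 ± 1.71 CPM alone and 32.3 ± 2.96 CPM with Th17 cells (SD, n = 3 each), a log2 fold change of −1.61 (SE 0.08). These partner genes lie end to end, 6901 bases apart. An antisense gene overlaps C1s1, and it was listed at 0 counts in all libraries.

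C4b and C2 encode the substrates that C1s cleaves. C4b (ENSMUSG00000073418, chromosome 17, 34728380 to 34743882) had counts of 400, 465 and 387 alone and of 6, 1 and 9 with Th17 cells. Its level averaged 33.5 ± 2.92 CPM alone and 0.403 ± 0.305 CPM with Th17 cells (SD, n = 3 each), a log2 fold change of −6.33 (SE 0.29). This was the lowest value among the members. The fitted value moved with the library left out, to −6.92 without cocultured replicate 3 and −5.87 without cocultured replicate 2. C2 (ENSMUSG00000024371, chromosome 17, 34862604 to 34898265) had counts of 1026, 1078 and 1029 alone and of 205, 127 and 214 with Th17 cells. It averaged 83.9 ± 3.84 CPM alone and 13.8 ± 3.38 CPM with Th17 cells (SD, n = 3 each), a log2 fold change of −2.60 (SE 0.16). Cocultured replicate 2 was the lowest library for both C4b and C2, while for C1ra and C1s1 it was the highest of the cocultured libraries.

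C3, the protein on which all activation routes converge, differed least among the members whose groups did not overlap. C3 (ENSMUSG00000024164, chromosome 17, 57203970 to 57228136) had counts of 4242, 4431 and 3838 alone and of 2892, 2776 and 2394 with Th17 cells. Its level averaged 334.5 ± 13.6 CPM alone and 205.1 ± 19.9 CPM with Th17 cells (SD, n = 3 each), a log2 fold change of −0.71 (SE 0.08), which is a 1.63-fold lower level. It was the only member with groups that did not overlap and a fold change under 2.

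Cfb encodes factor B, which supplies the protease of the alternative pathway and is a close relative of C2. Cfb (ENSMUSG00000090231, chromosome 17, 34856374 to 34862518) had counts of 1184, 1050 and 1195 alone and of 80, 77 and 60 with Th17 cells. It averaged 91.9 ± 9.04 CPM alone and 5.52 ± 0.829 CPM with Th17 cells (SD, n = 3 each), a log2 fold change of −4.06 (SE 0.13), so the level was 16.6-fold lower. Cfb and C2 lie 85 bases apart on the same strand, and a further protein-coding gene, Gm20547, overlaps both. Gm20547 had counts of 1101, 1334 and 939 alone and of 31, 33 and 58 with Th17 cells, so fragments of this locus were divided among 3 genes. Among lone libraries Gm20547 was highest where Cfb was lowest. With the counts of Gm20547 added, the log2 ratio of mean CPM was −4.40 for Cfb, −3.36 for C2 and −3.57 for the 3 genes together. The 3 genes together were lower whichever way fragments were divided among them. Gm20547 was itself lower with Th17 cells, so adding its counts could not reverse the direction of Cfb or C2. The size of each value changed with this addition. Taking fragments away from either gene was not examined, so whether each direction depends on the division was not tested.

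Masp1, whose transcripts encode the lectin pathway proteases MASP-1 and MASP-3, was the only member that was higher with Th17 cells. Masp1 (ENSMUSG00000022887, chromosome 16, 23451785 to 23520590) had counts of 8, 10 and 0 alone and of 345, 283 and 253 with Th17 cells. Its level averaged 0.470 ± 0.416 CPM alone and 22.4 ± 3.20 CPM with Th17 cells (SD, n = 3 each), a log2 fold change of 5.51 (SE 0.40). The lone libraries differed among themselves, and the value was 6.08 without lone replicate 2 and 4.97 without lone replicate 3. Gene counts do not separate the MASP-1 and MASP-3 transcripts. Rtp4, an interferon-induced gene on the opposite strand, overlaps Masp1 and differed the other way, with counts of 1969, 2044 and 1856 alone and of 1020, 956 and 902 with Th17 cells (log2 fold change −1.10, edgeR adjusted p = 2.02e-06).

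Serping1 encodes C1 inhibitor, a serpin that inactivates C1r, C1s and the MASPs. Serping1 (ENSMUSG00000023224, chromosome 2, 84765387 to 84775444) had counts of 5762, 6255 and 5822 alone and of 1110, 1155 and 909 with Th17 cells. It averaged 477.8 ± 26.6 CPM alone and 80.8 ± 10.9 CPM with Th17 cells (SD, n = 3 each), a log2 fold change of −2.56 (SE 0.10), a 5.91-fold lower level. Cd55, the membrane regulator on the list, did not separate the groups. Cd55 (ENSMUSG00000026399, chromosome 1, 130439027 to 130462744) had counts of 609, 545 and 453 alone and of 556, 525 and 525 with Th17 cells. Its groups overlapped, with levels of 42.9 ± 4.48 and 40.8 ± 0.782 CPM (SD, n = 3 each) and a log2 fold change of −0.07 (SE 0.09). An antisense gene overlaps Cd55, and the sources do not say if fragments were counted by strand.

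The spread between lone libraries was below 11% of the mean for every member except Masp1, where it was 88.4%. Between cocultured libraries it ranged from 1.91% for Cd55 to 24.4% for C2, and reached 75.7% for C4b. Masp1 in lone and C4b in cocultured libraries, which were the widest, had at most 10 counts in a library of that group.

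Levels of different genes were compared on the deposited FPKM scale (fragment counts relative to gene length and library total), which takes out gene length. In lone fibroblasts Serping1 was highest, at 165.1 ± 9.56 FPKM, followed by C3 at 57.6 ± 2.28 FPKM (SD, n = 3 each). C1ra, C1s1 and Cfb came next at 19.3 ± 0.666, 18.9 ± 0.299 and 18.7 ± 1.88 FPKM, and neighbours in this run overlapped between libraries. C2 at 14.5 ± 0.706, Cd55 at 6.73 ± 0.684, C4b at 5.20 ± 0.456 and Masp1 at 0.167 ± 0.148 FPKM followed, each without overlap with the gene above. In cocultured fibroblasts the order was different. C3 was highest at 36.9 ± 3.39 FPKM and Serping1 was second at 29.1 ± 3.75 FPKM. Masp1, the lowest member in lone fibroblasts, held the third place at 8.31 ± 1.17 FPKM. Its lowest library, at 7.19 FPKM, was below the highest of C1ra, at 7.49 FPKM, and its rank by CPM was 5. Cd55 at 6.70 ± 0.0975, C1ra at 6.49 ± 0.875 and C1s1 at 6.46 ± 0.551 FPKM overlapped with their neighbours. C2 at 2.51 ± 0.626, Cfb at 1.17 ± 0.171 and C4b at 0.0656 ± 0.0499 FPKM were lowest. The places of Cfb and C2 can depend on how fragments shared with Gm20547 were divided. With its counts added, the lone mean went from 91.9 to 182.0 CPM for Cfb and from 83.9 to 174.0 CPM for C2.

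**Figure D2:**
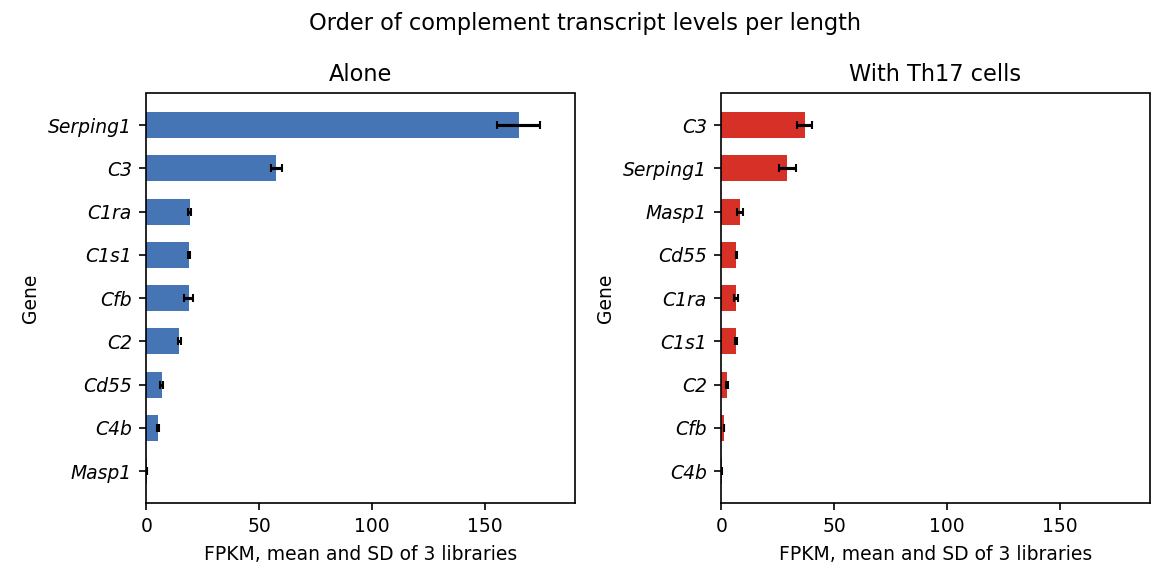
Mean FPKM with SD (n = 3 each) for the 9 genes in lone fibroblasts (left) and in fibroblasts with Th17 cells (right), each sorted by level on the same linear axis. Serping1 leads at 165.1 FPKM on the left and C3 at 36.9 FPKM on the right. Masp1 moves from the lowest to the third place, where its libraries overlap those of C1ra. The bars of Cfb and C2 leave out fragments assigned to Gm20547.

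Ratios within a library compare partner genes without any scaling between libraries. They use the same contrast as the list and are given without a test. The ratio of C1ra to C1s1 was 1.01, 1.07 and 0.982 in lone and 0.934, 1.07 and 1.0 in cocultured libraries. The groups overlapped, so the C1 proteases kept a ratio near 1 while both were lower with Th17 cells. The ratio of Serping1 to the sum of C1ra and C1s1 was 3.99, 4.44 and 4.56 in lone and 2.36, 2.25 and 2.14 in cocultured libraries. The transcript of the inhibitor was thus lower relative to those of its target proteases in every cocultured library. The ratio of Cd55 to C3 was 0.131, 0.112 and 0.108 in lone and 0.175, 0.173 and 0.200 in cocultured libraries. The ratio of Masp1 to C1s1 was at most 0.0151 in lone libraries and 1.46, 1.18 and 1.22 in cocultured libraries. The ratio of Cfb to C2 was 1.36, 1.15 and 1.37 in lone and 0.459, 0.713 and 0.330 in cocultured libraries, and it depends on how fragments shared with Gm20547 were divided.

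**Figure D3:**
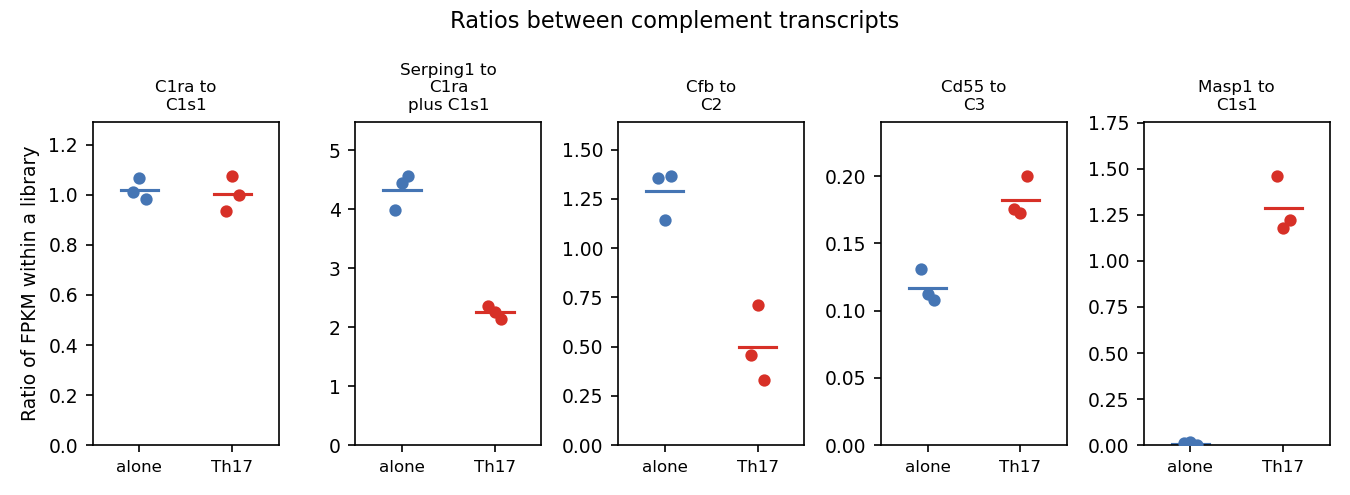
Ratios of FPKM within each library (points) with the mean of 3 libraries (lines), for lone (left, blue) and cocultured fibroblasts (right, red), each panel on its own linear axis from 0. The ratio of C1ra to C1s1 overlaps between the groups, and the other 4 ratios do not.

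Promoter sequences from RefSeq on GRCm38.p6 (250 bases before to 50 after the start of transcription) matched 4 of the members, C3, C1s1, Cd55 and C1ra. The 250 bases before the start are printed for C3, C1s1 and Cd55, because these genes show a small difference, a larger difference and overlapping groups. Capitals mark matches to motifs of factors known to act on complement promoters. They lie at chr17:57228137-57228386, chr6:124542360-124542609 and chr1:130462745-130462994, all on the minus strand, and are printed 5′ to 3′.
C3: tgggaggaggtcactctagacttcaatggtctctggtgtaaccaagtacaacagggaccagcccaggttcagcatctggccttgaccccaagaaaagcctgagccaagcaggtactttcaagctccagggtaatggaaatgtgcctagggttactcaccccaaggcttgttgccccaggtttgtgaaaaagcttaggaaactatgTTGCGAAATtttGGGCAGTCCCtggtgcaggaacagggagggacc
C1s1: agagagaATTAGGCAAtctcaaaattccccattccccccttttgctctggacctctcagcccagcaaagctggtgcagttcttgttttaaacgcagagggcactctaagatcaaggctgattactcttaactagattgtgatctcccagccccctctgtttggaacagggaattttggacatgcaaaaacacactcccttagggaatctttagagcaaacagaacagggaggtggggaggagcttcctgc
Cd55: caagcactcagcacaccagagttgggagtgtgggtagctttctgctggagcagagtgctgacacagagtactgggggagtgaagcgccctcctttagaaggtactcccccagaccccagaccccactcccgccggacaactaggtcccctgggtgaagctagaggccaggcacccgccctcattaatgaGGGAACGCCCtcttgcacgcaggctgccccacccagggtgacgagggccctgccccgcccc
The motifs searched on both strands were GAS (TTCNNNGAA), ISRE (GAAA, any 2 bases, GAAA), C/EBP (TTGCNNAAT) and NF-κB (GGGA, any 3 bases, CCC, or GGGANNTCC). In C3 a C/EBP match lay at positions −45 to −37 from the start, and an NF-κB match lay on the opposite strand at −33 to −24. The table holds 2 starts for C1s1, and the sequence before the more upstream start is printed. There a C/EBP match lay on the opposite strand at −243 to −235, while the window of the other start held no match. In Cd55 an NF-κB match lay at −61 to −52. The C1ra window held a GAS match, TTCCCTGAA, at positions 33 to 41 after the start. No ISRE match was found in these windows. Of all 32851 promoter windows, 8.30% held a GAS, 3.44% an ISRE, 9.0% an NF-κB and 2.40% a C/EBP match. A match of letters is a description of the sequence and not a binding site.

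To place the members in their pathway, a wider list of 45 further complement genes was examined. Of these, 20 had 0 counts in all libraries, 14 had counts too low to test, with at most 19 in any library, and 11 were tested. With Th17 cells 5 were lower and 0 higher past the threshold by edgeR's quasi-likelihood test, beside 7.78% and 3.87% of all genes. Of these 5, only C1s2 had counts above the filter in all libraries. Clu and C3ar1 passed it in the 3 lone libraries alone, and C1rb and Itgb2 in the 3 lone and 2 cocultured libraries, so all 4 entered through the group where they were high and the count is not read as support for a direction. No gene was higher at an unadjusted p below 0.05 either, with edgeR, DESeq2 or limma on log2(FPKM + 1), where the count was 0 each time. Without a fold change limit 7 were lower and 0 higher, beside 20.0% and 17.1% of all genes. Their median log2 fold change was −0.87, also with Clu placed at its lower bound. As the members were picked out of this pathway for their values, the remainder is what that choice left.

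Among classical pathway genes the paralogs of the C1 proteases, C1s2 and C1rb, were lower with Th17 cells. C1rb entered the test through the lone libraries, where it was high, so its call is not read as support for a direction. C1s2 had counts of 113, 115 and 89 alone and of 35, 34 and 32 with Th17 cells (log2 fold change −1.72, SE 0.17, edgeR adjusted p = 4.77e-05). C1rb had counts of 34, 37 and 31 alone and of 16, 15 and 8 with Th17 cells (−1.45, SE 0.30, edgeR adjusted p = 0.00448). C4a, the paralog of C4b, annotated as a processed transcript, had counts of 44, 24 and 20 alone and of 19, 25 and 24 with Th17 cells (−0.43, SE 0.33, edgeR adjusted p = 0.335), and its groups overlapped. C1ra and C1rb, C1s1 and C1s2, C4b and C4a, and Cd55 and Cd55b are pairs of similar genes, and how fragments that fit both were assigned was not stated. The C1q chains C1qa, C1qb and C1qc, which macrophages make, had at most 5 counts in a lone library and 0 counts in every cocultured library.

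Of the lectin pathway, 5 of 8 genes were at 0 in all libraries, among them the collectins Colec10 and Colec11 and both mannose-binding lectins, Mbl1 and Mbl2. At this depth 0 counts allows up to 0.254 CPM. Fcna had at most 1 count. Masp2, the other MASP gene, had counts of 27, 16 and 21 alone and of 20, 21 and 17 with Th17 cells (−0.21, SE 0.29, edgeR adjusted p = 0.602). No recognition molecule of this pathway was thus detected at a testable level beside Masp1. Of the terminal pathway, C6, C7, C8a, C8b, C8g and C9 were at 0 counts throughout, and Hc, which encodes C5, had at most 6.

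Cfp, which encodes properdin, the stabiliser of the alternative pathway enzyme, was lower by less than the fold change limit (−0.87, SE 0.22, edgeR adjusted p = 0.0139). This call was lost with DESeq2 (adjusted p = 0.0509) and with edgeR without lone replicate 1 (adjusted p = 0.0562) or lone replicate 2 (adjusted p = 0.0525). Cfd, the protease that activates factor B, was at 0 counts in all libraries. Clu, which encodes clusterin, an inhibitor of the terminal complex, had counts of 145, 122 and 129 alone and of 2, 3 and 3 with Th17 cells. It was at least 45.0-fold lower (edgeR adjusted p = 2.93e-07), with the floor of 3 counts set per library and the highest such floor used. Clu entered the test through the lone libraries alone, where it was high, so this call is not read as support for a direction. Cfi, a protease that inactivates C3b, had at most 4 counts.

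Among membrane regulators, Cr1l, the mouse regulator also called Crry, fell from 71.7 ± 10.5 to 45.9 ± 1.19 CPM (SD, n = 3 each), less than the fold change limit (−0.64, SE 0.10, edgeR adjusted p = 0.00124). Cd59a, which blocks assembly of the terminal complex, had counts of 83, 115 and 61 alone and of 93, 85 and 94 with Th17 cells (0.00, SE 0.21, edgeR adjusted p = 0.996). Cd46 had counts of 40, 13 and 22 alone and of 16, 17 and 23 with Th17 cells (−0.49, SE 0.40, edgeR adjusted p = 0.380). Together with Cd55, none of the 4 membrane regulators in the fit differed by more than 2-fold. Of all genes tested, 11.6% passed the threshold in either direction. With so few genes, this count is not read as a trait of membrane regulators. Both receptor genes that could be tested, C3ar1 and Itgb2, were lower, but both entered the test through the lone libraries, where they were high. Of 2 others with counts too low to test, Itgam had counts of 10, 15 and 2 alone and of 2, 0 and 0 with Th17 cells. C5ar1 had counts of 1, 4 and 4 alone and of 12, 6 and 2 with Th17 cells. C3ar1, the receptor for C3a, had counts of 56, 53 and 51 alone and of 3, 4 and 8 with Th17 cells (−3.46, SE 0.33, edgeR adjusted p = 4.14e-05). Itgb2, a chain of complement receptors on white blood cells, had counts of 48, 43 and 27 alone and of 10, 18 and 12 with Th17 cells (−1.62, SE 0.32, edgeR adjusted p = 0.00393). Macrophages also express C3ar1 and Itgb2. All 7 macrophage markers tested were lower with Th17 cells at an edgeR adjusted p below 0.05, beside 20.0% of all genes. Of these, only Lyz2 and Cd68 had counts above the filter in all libraries. Adgre1, Aif1, Laptm5, Fcgr3 and Mertk entered through the lone libraries, where they were high, so this count is not read as support for a direction. The part of macrophages in the lower complement values was not tested.

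**Figure D4:**
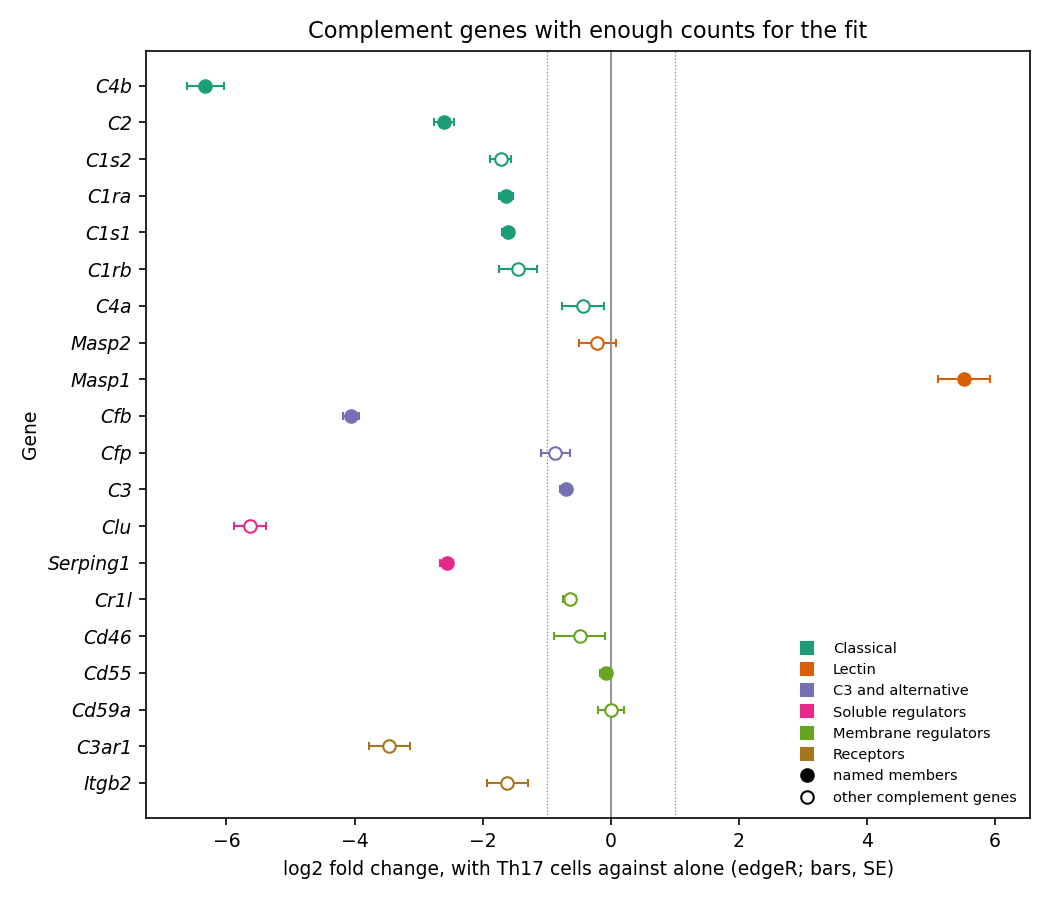
Log2 fold change with SE (edgeR, 3 libraries in each group) for 20 complement genes with enough counts, coloured by role, with filled points for the 9 named genes and open points for the other 11. Dotted lines mark a 2-fold difference. Masp1 is the only gene right of the upper line, membrane regulators lie between the lines, and the point for Clu is a fitted value that rests on 3 counts or fewer in each cocultured library.

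C2, Cfb and C4b share a stretch of chromosome 17 with C4a, in the region of the major histocompatibility complex, and the 4 genes span 169886 bases. To see whether other genes of this stretch moved too, its 10 further genes were examined, of which 6 were tested. Gm20547, which overlaps C2 and Cfb, fell (−4.86, edgeR adjusted p = 2.69e-07). The others, Dxo, Stk19, Zbtb12, Nelfe and Skiv2l, had log2 fold changes from −0.43 to 0.30. None had an edgeR adjusted p below 0.05, beside 37.1% of all genes in either direction. With so few genes, this is not read as a trait of the stretch. Zbtb12 overlaps C2 on the opposite strand. On chromosome 6, C1ra and C1s1 lie beside their paralogs C1rb and C1s2, and no other gene of that stretch had counts.

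A list of 9 transcription factors known to act on complement promoters was examined in the same fit. Of these, 2 were lower and 0 higher past the threshold, beside 7.78% and 3.87% of all genes, and 4 were lower and 2 higher without a fold change limit, beside 20.0% and 17.1%. Irf1 fell (log2 fold change −1.54, SE 0.13, edgeR adjusted p = 1.6e-05), as did Stat2 (−1.3, SE 0.07, edgeR adjusted p = 1.17e-06). Stat2 and Irf1 carry interferon signals. Other genes overlap Irf1, Stat3 and Cebpb on the opposite strand, and Rnf31 overlaps Irf9 on the same strand. Irf9 and Stat3 fell by less, with log2 fold changes of −0.59 and −0.34 (edgeR adjusted p = 0.000372 and 0.00271). Nfkb1, a subunit of NF-κB, averaged 181.4 ± 2.89 CPM alone and 361.9 ± 16.7 CPM with Th17 cells (SD, n = 3 each). It rose 1.99-fold (edgeR adjusted p = 1.85e-06), just under the fold change limit, and passed that limit under 5 alternatives. Cebpd was higher (log2 difference 0.41, SE 0.14, edgeR adjusted p = 0.0404), with counts of 763, 728 and 851 alone and of 972, 989 and 1328 with Th17 cells. Its difference was 0.26 without cocultured replicate 3 (edgeR adjusted p = 0.0925), and the call was also lost without lone replicate 1 (0.132), lone replicate 2 (0.135) or cocultured replicate 2 (0.0554). Of the rest, none passed the test, Cebpb (0.06, SE 0.07, edgeR adjusted p = 0.558), Rela (0.04, SE 0.07, edgeR adjusted p = 0.688) and Nfkbiz (−0.08, SE 0.10, edgeR adjusted p = 0.555). No link between these transcripts and those of the complement genes was tested.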

How the data were processed

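Reads were filtered by the authors with Seqtk, aligned with HISAT2 2.0.4 (mm10, per the submitters' processing notes) and counted with StringTie 1.3.3b. The authors deposited raw fragment counts per gene and, beside them, FPKM values scaled to gene length and library total. Strand use and treatment of multiply fitting fragments were not stated. Samples were grouped by their titles. Of the gene identifiers, 34344 occur in GENCODE M21 (GRCm38), and 99.9% of these overlap their annotated position. Where a symbol occurred on several rows, the row with most counts was used.

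Counts entered edgeR 4.0.16 under R 4.3.3 (filterByExpr, minimum count 10, TMM, glmQLFit, glmQLFTest, Benjamini-Hochberg adjustment over 13088 genes). Calls needed adjusted p under 0.05 with more than a 2-fold difference, the limits of the study itself. SE is the log2 fold change divided by the square root of F. Members and gene lists were chosen with earlier results of these data known. Named genes are the 9 members, the complement list, the transcription factor list and marker genes given by count and range. Alternatives were DESeq2 1.42.0, limma 3.58.1 on log2(FPKM + 1), other scalings and filters, a replicate block and leaving out each library. The fits were first tested on simulated data. Floors describe counting error alone, since reads carried no molecular identifiers. Protein sequences of the members were not analysed here. A gene of the complement list and a gene of the transcription factor list are not reported here, and their lists are counted without them.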

Additional observations from a re-analysis of the deposited data

How the results depend on the processing

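Under the alternatives that could fit it, each member except Cd55 kept its direction, and Cd55 lay between −0.15 and 0.00. The other scalings, the filters, DESeq2 and the replicate block moved no member by more than the spread between libraries. Limma on log2(FPKM + 1), which understates low genes, moved 6 members, C4b to −2.54, C2 to −2.16, C1ra to −1.44, C1s1 to −1.42, Cfb to −3.18 and Masp1 to 3.0, and C1rb, C3ar1 and Itgb2 no longer passed the fold change limit. The number of other complement genes past the threshold was 5 lower and 0 higher, and leaving out single libraries gave 5 to 5 lower and 0 to 0 higher. It was 2 lower with at least 10 counts in every library, which tests fewer genes and leaves out C4b and Masp1, and 2 lower with limma on log2(FPKM + 1). It was 7 lower without a filter, where Itgam and C1qc were added, and 7 lower without a fold change limit. Nfkb1 passed the fold change limit under 5 alternatives, with at most 1.06. Adding the counts of Gm20547 was chosen after the data had been seen. The replicate numbers did not pair the libraries, since same-numbered libraries correlated at 0.0157, −0.0256 and −0.0036, and with the replicate block the counts were 5 lower and 0 higher. Ordered by CPM instead of FPKM, 8 of 18 level ranks differed. Few counts limit Masp1 in lone and C4b in cocultured fibroblasts. Of the other complement and transcription factor genes called at an adjusted p below 0.05, Cfp and Cebpd lost that call under an alternative. Calls of marker genes, Rtp4 and Gm20547 are not covered by this.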
